A study of Saccharomyces cerevisiae with 12 samples.

Results

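Messenger RNA levels of 42 yeast genes were described, namely GCN4 and 41 genes whose enzymes make amino acids. The genes were picked by name, with earlier results of these data known. They were GCN4, 7 genes each for arginine and lysine, and 5 each for histidine and threonine. The others were 4 each for tryptophan, for the common aromatic route and for serine, 3 for branched-chain amino acids and 2 for asparagine. All 42 were found among the 7126 features of the deposited tables, and all 42 passed the filter on low values that left 5956 features to test. Most of these genes are textbook targets of Gcn4. A few others of the same routes were listed with them, and binding of Gcn4 was not measured here.

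Gcn4 is the transcription factor of general amino acid control in budding yeast. When an amino acid runs short, uncharged tRNA activates the kinase Gcn2, which phosphorylates the translation factor eIF2, and reduced eIF2 activity lets ribosomes pass short upstream reading frames and translate GCN4 mRNA. Gcn4 protein then binds TGACTCA sites before the genes of many biosynthetic routes at once, and it is itself rapidly degraded. Control of Gcn4 is therefore mostly at translation and protein stability, which the level of GCN4 mRNA does not show.

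The study compared wild type with 3 strains that survive without parts of piccolo NuA4, the small form of the NuA4 histone acetyltransferase made up of the catalytic subunit Esa1, Epl1 and other subunits. Wild type was MATα W303 with the markers his3-11, trp1-1, ade2-1, ura3-1, can1-100 and a leu2 allele, which the labels list for this group alone. The mutants, also MATα W303, were labelled epl1Δ::kanMX with sds3Δ::natMX, esa1Δ::HIS3 with sds3Δ::natMX, and esa1Δ::HIS3 with both epl1Δ::kanMX and sds3Δ::natMX. Each group had 3 biological replicates grown in synthetic complete medium, which supplies amino acids, to mid-log phase at 24 °C, and rRNA-depleted strand-specific libraries were sequenced. Sds3 is a subunit of the Rpd3L histone deacetylase. All 3 mutants carry the sds3Δ label and no group has it alone, so effects of SDS3 cannot be told apart from those of EPL1 or ESA1. The HIS3 marker came with every esa1Δ label, so the marker and loss of ESA1 cannot be told apart either.

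The libraries held between 8089178 and 14527279 reads behind their values, of which the 42 genes took between 69866 and 209063 and the lowest of them at least 84. ESA1 had 1 to 3 reads in every library labelled esa1Δ and 158 to 310 in the others. EPL1 had 4 to 13 reads in the libraries labelled epl1Δ and 62 to 142 in the others. SDS3 went against its label, with 36 to 77 reads in the libraries labelled sds3Δ beside 112 to 158 in wild type, so the mutant groups are named by their labels and every direction below is one between labels. The 4 α-specific genes used as markers summed to between 1060 and 1233 deposited RPKM in wild type and between 299 and 391 in the mutants, and the 5 a-specific genes to at most 14.2 in any library. Protein-coding genes took 64.6% to 65.5% of the reads in wild type and 53.2% to 56.7% in the mutants. That share moves with every comparison against wild type, and its part in the results was not tested. Levels below are RPKM, reads scaled to gene length and library size, divided by a scaling factor per library. Means are given with their SD over 3 libraries, fold changes are differences of log2(scaled RPKM + 1), and the mutant labels always follow the order epl1Δ sds3Δ, esa1Δ sds3Δ, esa1Δ epl1Δ sds3Δ. "Rose" and "fell" stand for an adjusted p under 0.05 in limma's moderated test, adjusted by Benjamini-Hochberg over all 5956 features.

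More of the 42 genes fell than rose under each mutant label, and all 7 lysine genes fell under every label. In the libraries labelled epl1Δ sds3Δ, 16 of the 42 fell and 5 rose, where 30% of all features tested fell and 30.1% rose. Under the label esa1Δ sds3Δ 21 fell and 5 rose, against 29.7% and 30% of all features. For esa1Δ epl1Δ sds3Δ 25 fell and 1 rose, against 29.3% and 30.1%. The members that fell were 38.1%, 50% and 59.5% of the 42, and the members that rose were 11.9%, 11.9% and 2.38%. The median fold change of the 42 was -0.24, -0.33 and -0.39 on the log2 scale, beside medians of -0.0063, -0.0064 and 0.0032 over all features. With RPKM as deposited and no scaling, the median of all features moved to -0.24, -0.24 and -0.18, and the counts became 25, 27 and 32 that fell and 0 that rose under each label. The fold changes in the main scaling ran from -1.865 for LYS1 under the label esa1Δ epl1Δ sds3Δ to 0.51 for ILV1 under epl1Δ sds3Δ. The 3 comparisons share their wild-type libraries, so they are not independent of each other. A fit of only the 6 libraries compared ended the calls of CPA1 under every label, of LYS21, ARO2, HOM3 and ILV1 under both labels with a single NuA4 deletion, of ARG4 under both labels with esa1Δ, of LYS12 and TRP3 under epl1Δ sds3Δ, of TRP4, THR4, SER1 and ASN1 under esa1Δ sds3Δ, and of HIS5 and TRP5 under the triple label; the gene accounts below name the libraries and scalings that ended calls.

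**Figure D1:**
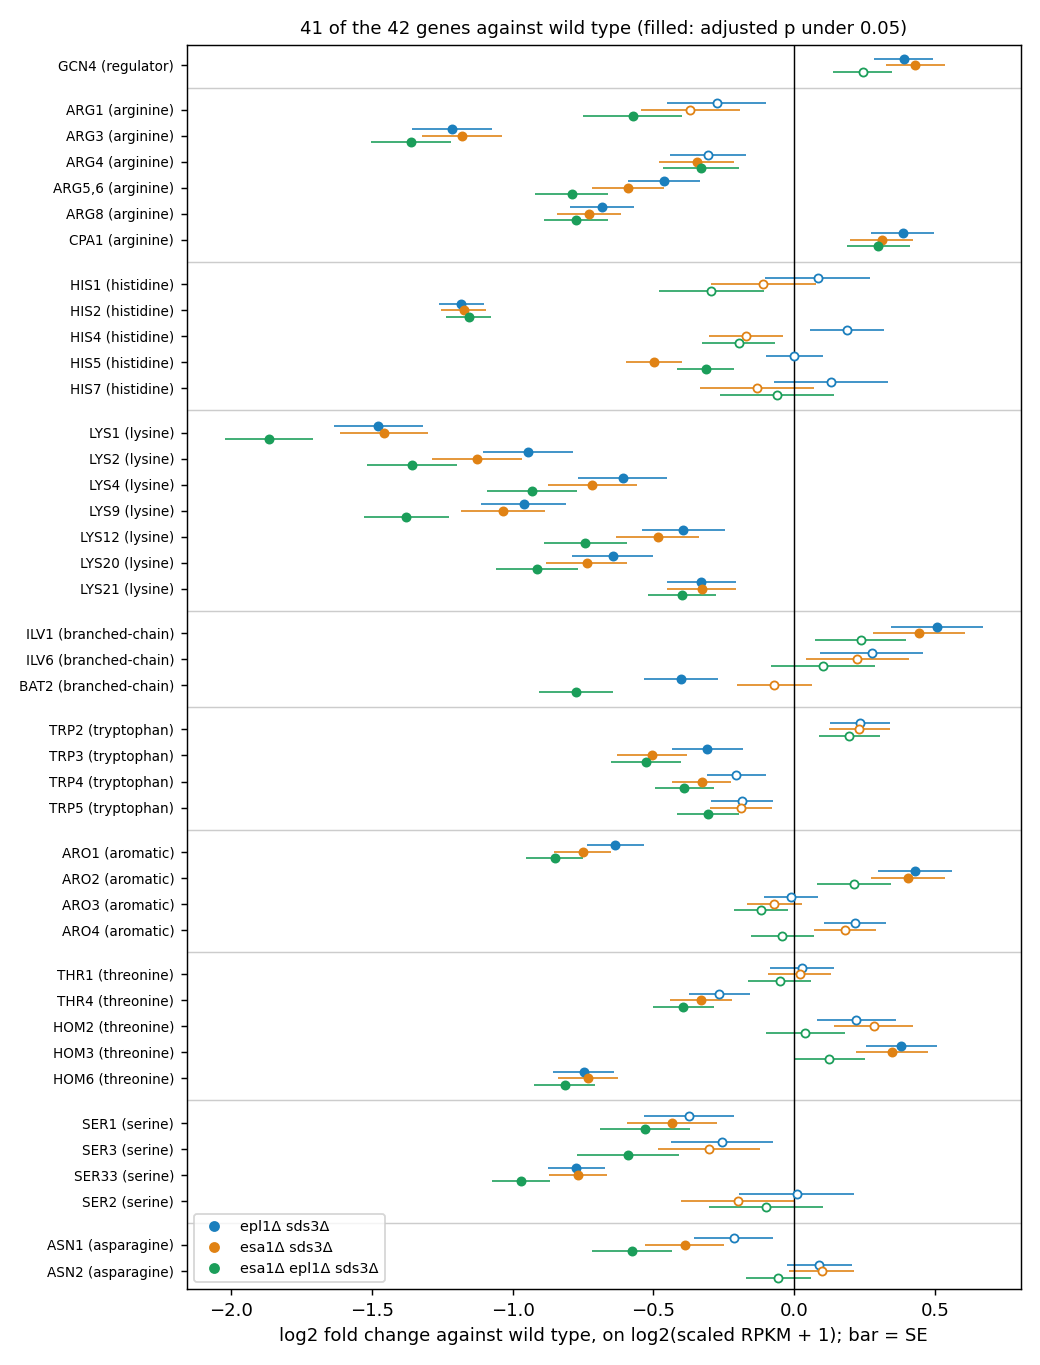
The log2 fold change against wild type of 41 of the 42 genes (horizontal axis, difference of log2(scaled RPKM + 1), bars are the SE) is shown by gene and pathway for the 3 mutant labels, with filled points for adjusted p under 0.05. The lysine genes are all filled and left of 0, while GCN4, CPA1, ILV1, ARO2 and HOM3 hold the filled points to the right. LYS1 lies furthest to the left under every label. ARG3 and HIS2 come next under the labels with a single NuA4 deletion, and LYS9, ARG3 and LYS2 under the triple label.

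The wild-type libraries differed among themselves more in these genes than the mutant libraries did. The median SD over 3 libraries on the log2 scale was 0.247 for the 42 genes in wild type and 0.102, 0.0999 and 0.0715 in the mutants, beside 0.181 and 0.137, 0.117 and 0.111 over all features. Wild-type replicate 3 was the lowest of the 3 for 37 of the 42 genes, or 88.1%, and for 36.5% of all features. The 7 lysine genes were all highest in wild-type replicate 2, and the 4 serine genes were all highest in replicate 1. Without wild-type replicate 3, 22, 26 and 27 members fell and 3, 1 and 0 rose. Without replicate 1 the counts were 14, 16 and 22 that fell and 7, 5 and 1 that rose, and without replicate 2 they were 14, 18 and 24 that fell and 7, 7 and 3 that rose.

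**Figure D2:**
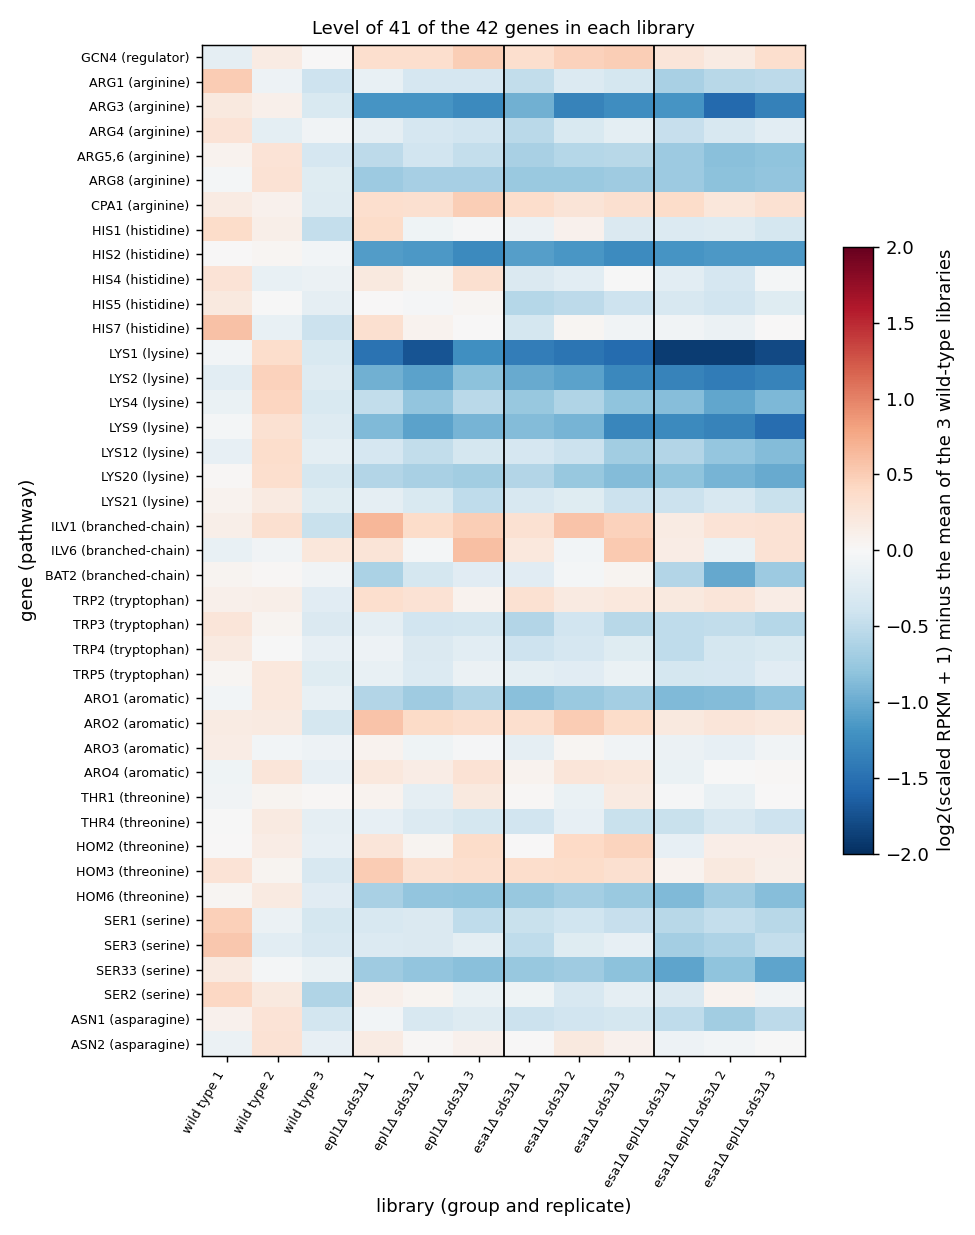
The level of 41 of the 42 genes (rows, with pathway) in each of the 12 libraries (columns, 3 replicates per group) is shown as the difference of log2(scaled RPKM + 1) from the mean of the 3 wild-type libraries, red for higher and blue for lower. Blue bands for ARG3, HIS2, HOM6, ARO1, SER33 and the lysine genes run through all 9 mutant libraries, and wild-type replicate 3 is paler or bluer than replicates 1 and 2 in most rows.

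GCN4 mRNA itself (YEL009C, V 138918 to 139763 in R64) rose under the labels with a single NuA4 deletion. Its level was 549, 698 and 623 RPKM in the wild-type libraries. The libraries labelled epl1Δ sds3Δ had 782, 785 and 874, those labelled esa1Δ sds3Δ 785, 853 and 876, and those labelled esa1Δ epl1Δ sds3Δ 733, 694 and 781. Every library labelled epl1Δ sds3Δ or esa1Δ sds3Δ lay above all wild-type libraries, while replicate 2 of the triple label lay just under the highest wild-type library. GCN4 rose by 0.39 (SE 0.10) and 0.43 (SE 0.10) on the log2 scale, with limma's adjusted p of 0.00617 and 0.00336, and had 0.24 (SE 0.10) under esa1Δ epl1Δ sds3Δ with an adjusted p of 0.06. Both rises lost their call with RPKM as deposited (0.13 and 0.18, adjusted p 0.137 and 0.0517) and with quantile normalization. Under the triple label GCN4 was called higher in 3 of the 16 alternatives by limma's test. These were scaling by the protein-coding total (0.20, adjusted p 0.0382), the replicate number as a block (0.24, adjusted p 0.0389) and leaving out wild-type replicate 2 (0.32, adjusted p 0.0107).

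Of 16 genes that act on Gcn4, a list of kinases, translation factors and degradation factors, 5, 3 and 3 rose and 6, 5 and 5 fell. These shares, 31.2%, 18.8% and 18.8% that rose and 37.5%, 31.2% and 31.2% that fell, stand beside about 30% each way over all features. GCD2 and GCD6, which encode subunits of the eIF2B exchange factor that recharges eIF2, rose by 1.00, 0.86 and 0.94 and by 0.69, 0.63 and 0.74. PHO85, whose kinase marks Gcn4 protein for degradation, fell from a mean of 35.8 ± 3.55 RPKM in wild type to 18.3 ± 2.16, 17.3 ± 2.42 and 17.3 ± 2.43. GCN2, the kinase that senses uncharged tRNA, had 8.76 ± 0.459 RPKM in wild type and fell by 0.29 and 0.39 in the labels with a single NuA4 deletion, with 0.17 lower under the triple label (adjusted p 0.104). GCN1, which Gcn2 needs for its activation, fell by 0.53, 0.58 and 0.66.

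Lysine is made in fungi from 2-oxoglutarate by the α-aminoadipate route, and the 7 lysine genes were the one pathway of the list in which every member fell under every mutant label. Together they summed to 3220 ± 692 RPKM in wild type and to 1760 ± 111, 1682 ± 193 and 1381 ± 75.6 under the 3 labels. Their median fold changes were -0.64, -0.74 and -0.93. The fold changes of the 7 genes ran from -1.48 to -0.33, from -1.46 to -0.33 and from -1.865 to -0.40.

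LYS1 (YIR034C, IX 419615 to 420736), the saccharopine dehydrogenase that releases lysine in the last step, had the largest fall of the 42 genes. It measured 491, 652 and 410.3 RPKM in the wild-type libraries. Its levels were 183, 153 and 216 under epl1Δ sds3Δ, 195, 184 and 175 under esa1Δ sds3Δ, and 136, 135 and 145 under esa1Δ epl1Δ sds3Δ. No mutant library overlapped wild type, and the lowest wild-type library was still far above the highest mutant one. LYS1 fell, with log2 fold changes of -1.48, -1.46 and -1.865 (SE 0.16 each) and limma's adjusted p of 6.12e-06, 7.17e-06 and 8.64e-07.

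LYS9 (YNR050C, XIV 714048 to 715388), which makes saccharopine in the step before and was the highest of the lysine genes, went from 1485 ± 294 RPKM to 754 ± 50.3, 722 ± 115 and 565 ± 49.1. LYS2 (YBR115C, II 469748 to 473926), the α-aminoadipate reductase, went from 167 ± 49.8 to 84.2 ± 7.24, 74.2 ± 7.27 and 62.9 ± 1.38. LYS4, the homoaconitase, and LYS12, the homoisocitrate dehydrogenase, are the middle steps. LYS4 fell by 0.61, 0.72 and 0.93 and LYS12 by 0.39, 0.48 and 0.74. The LYS12 call was lost under epl1Δ sds3Δ without wild-type replicate 2 or without any 1 of the 3 mutant libraries, and under esa1Δ sds3Δ without replicate 3 of that label. LYS12 lies 14644 bases from SDS3 on chromosome IX.

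LYS20 and LYS21 are paralogs for homocitrate synthase, the first step of the route. LYS20 (YDL182W, IV 133437 to 134723) measured 309, 380.4 and 236 RPKM in wild type, 202, 192 and 186 under epl1Δ sds3Δ, 200.4, 179 and 166 under esa1Δ sds3Δ, and 172, 159 and 151 under the triple label. LYS21 (YDL131W, IV 227393 to 228715) measured 195, 212 and 157 in wild type, then 165, 151 and 131, then 149, 158 and 138, then 139, 149 and 137. LYS20 did not overlap wild type under any label, while LYS21 overlapped it under the labels with a single NuA4 deletion. LYS20 fell by 0.64, 0.74 and 0.91 and LYS21 by 0.33, 0.33 and 0.40. The 2 coding sequences are 88.2% identical, with an identical run of 278 bases, and how the authors assigned reads that match both is not given in the sources used here, so the split between them is uncertain. The LYS21 call was lost under the first label without wild-type replicate 1 or 2 or mutant replicate 2 or 3, and under the second without wild-type replicate 1 or 2 or mutant replicate 1 or 3.

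LYS14, the transcription factor dedicated to lysine genes, which is activated by the intermediate α-aminoadipate semialdehyde, also fell. It measured 45.8, 33.2 and 43.0 RPKM in wild type and between 19.4 and 25.5 in the 9 mutant libraries, and its fold changes were -0.82, -0.92 and -0.88 with adjusted p of 0.000117, 4.77e-05 and 6.4e-05. MKS1, a repressor known to act on this route, had 0.20, 0.22 and 0.38, of which the last was a rise (adjusted p 0.0345). LYS5, which activates the Lys2 enzyme, had fold changes of -0.04, -0.13 and 0.04, none past the test.

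**Figure D3:**
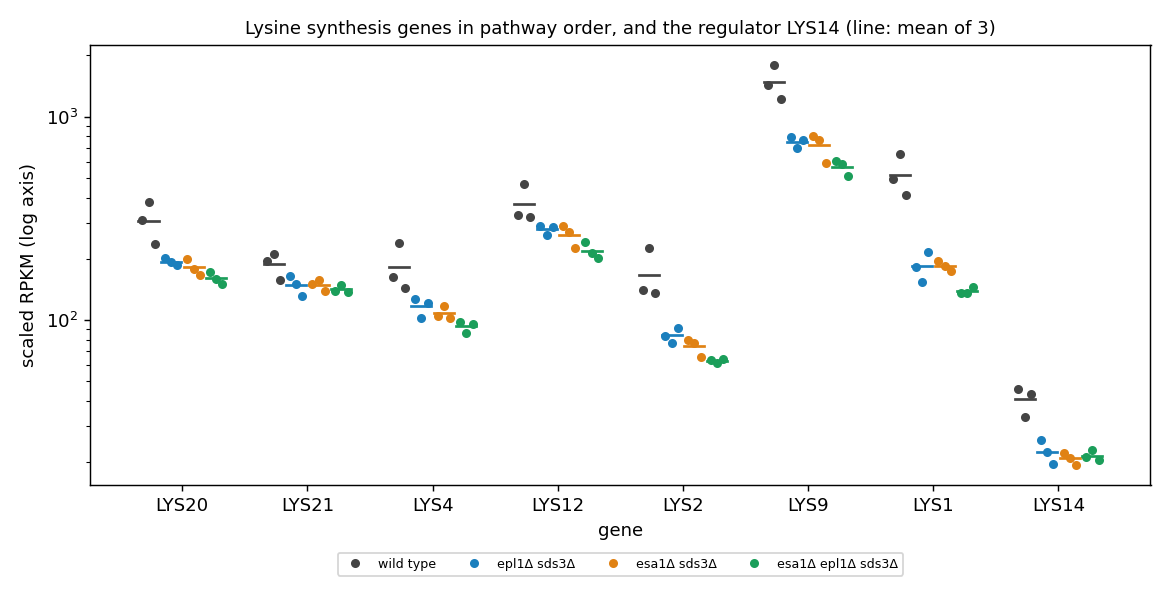
Scaled RPKM on a log axis in each library is shown for the lysine genes in pathway order and for LYS14, coloured by group, with a line at the mean of 3 libraries. Wild-type points lie above the mutant points for LYS20, LYS4, LYS12, LYS2, LYS9, LYS1 and LYS14, and touch them for LYS21.

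The promoters of 4 lysine genes hold stretches that match the patterns searched for the pathway's factors. Capitals mark the Gcn4 site TGACTCA or its reverse complement TGAGTCA, and the pattern TCCNNNGGA, here called the Lys14 core. This pattern reads the same on both strands. Its middle letters were left free, and binding of Lys14 was not measured. The stretches are from the R64 genome of RefSeq, written 5′ to 3′ on the gene's strand: LYS1 chrIX:420902-421011, LYS9 chrXIV:715524-715633, LYS12 chrIX:187753-187842 and LYS2 chrII:474067-474146, all on the minus strand. They are shown because LYS1 holds both motifs, LYS9 holds the Lys14 core in 2 places, LYS12 holds the Lys14 core alone and LYS2 holds the Gcn4 site alone.
LYS1: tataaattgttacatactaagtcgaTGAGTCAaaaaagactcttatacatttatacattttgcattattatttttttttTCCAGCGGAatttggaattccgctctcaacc
LYS9: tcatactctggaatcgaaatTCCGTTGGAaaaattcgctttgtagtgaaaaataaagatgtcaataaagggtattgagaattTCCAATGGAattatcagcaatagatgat
LYS12: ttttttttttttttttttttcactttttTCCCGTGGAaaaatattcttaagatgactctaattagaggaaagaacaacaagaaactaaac
LYS2: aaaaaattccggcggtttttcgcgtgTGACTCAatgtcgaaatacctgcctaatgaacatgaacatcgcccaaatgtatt

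The Lys14 core was in the window from 250 bases before to 50 after the start codon in 3 of the 7 lysine genes, in 0 of the 35 other members and in 3.40% of 6000 gene promoters. In the 500 bases before the start codon it was in 4 of the 7, in 2 of the 35 and in 5.90% of all. LYS4 and LYS20 held neither motif in these windows and still fell, which says only that these letters are not there.

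Among the 7 arginine genes, 3, 4 and 5 fell under the 3 labels and 1, CPA1, rose under each. That is 42.9%, 57.1% and 71.4% that fell, where 30%, 29.7% and 29.3% of all features did. ARG3 (YJL088W, X 268799 to 269815), ornithine carbamoyltransferase, measured 134, 126 and 95.0 RPKM in wild type. It had 51.2, 50.8 and 47.6 under epl1Δ sds3Δ, 59.4, 45.9 and 48.9 under esa1Δ sds3Δ, and 51.1, 39.3 and 45.2 under esa1Δ epl1Δ sds3Δ. All 9 mutant libraries lay below all wild-type libraries, and the mutant groups overlapped each other. ARG3 fell by 1.21 (SE 0.14), 1.18 (SE 0.14) and 1.36 (SE 0.14), with limma's adjusted p of 1.27e-05, 1.63e-05 and 4.63e-06.

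Both genes for the mitochondrial steps to ornithine on the list also fell. ARG5,6 (V 295410 to 298001), whose protein is cut into acetylglutamate kinase and a reductase, fell by 0.46, 0.59 and 0.79, and ARG8, acetylornithine aminotransferase, by 0.68, 0.73 and 0.77. ARG1, argininosuccinate synthetase, measured 743, 487 and 394 RPKM in wild type and between 335 and 473 in the mutants. Wild-type replicate 1 stood above every other library for ARG1, and the gene fell by 0.57 under the triple label alone, with -0.27 and -0.37 under the others (adjusted p 0.195 and 0.0877). ARG4, argininosuccinate lyase, fell by 0.35 and 0.33 under the labels esa1Δ sds3Δ and esa1Δ epl1Δ sds3Δ. Under epl1Δ sds3Δ it had a similar -0.31 without passing the test (limma's adjusted p 0.0649). The first ARG4 call was lost without wild-type replicate 1 or mutant replicate 1 or 2. The second was lost without wild-type replicate 1 or 3 or any 1 of the triple-label libraries. It was also lost with no filter on low values and with the replicate number as a block (limma's adjusted p 0.0543).

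CPA1 (YOR303W, XV 882899 to 884134), the small subunit of carbamoyl phosphate synthetase, rose from 161 ± 24.6 RPKM to 209.9 ± 14.5, 199 ± 6.53 and 198 ± 10.1, or by 0.39, 0.31 and 0.30. All mutant libraries exceeded all wild-type libraries. The adjusted p were 0.00961, 0.0291 and 0.0344, the calls under esa1Δ sds3Δ and the triple label were lost without wild-type replicate 3 or without replicate 1 or 3 of the mutant, and all 3 were lost with RPKM as deposited. The calls under esa1Δ sds3Δ and the triple label were also lost with the protein-coding total, and that under esa1Δ sds3Δ with quantile normalization. Outside the 42, ARG2, acetylglutamate synthase, rose by 0.66, 0.76 and 0.67, and ORT1, the mitochondrial ornithine carrier, fell by 0.60, 0.55 and 0.72.

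The genes that break arginine down moved opposite to ARG3. CAR1, arginase, measured 14.6, 22.5 and 20.9 RPKM in wild type and between 70.8 and 97.4 in the 9 mutant libraries, and rose by 2.13, 2.04 and 1.94. CAR2, ornithine transaminase, rose by 1.90, 2.05 and 1.98. Both genes are known to be repressed by Ume6, which recruits the Rpd3L deacetylase that contains Sds3, as well as being under the arginine regulators ArgR and Mcm1 that repress ARG3 and ARG5,6. Of those regulators, ARG82, an inositol polyphosphate kinase needed for ArgR function, rose from 3.84 ± 0.398 RPKM to 8.61 ± 0.771, 9.90 ± 1.34 and 9.85 ± 1.08. MCM1 rose by 0.63, 0.56 and 0.57. ARG80 rose by 0.61 and 0.39 and had 0.31 under the triple label (adjusted p 0.0721), and ARG81 had 0.23, 0.23 and 0.31, of which the last was a rise.

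**Figure D4:**
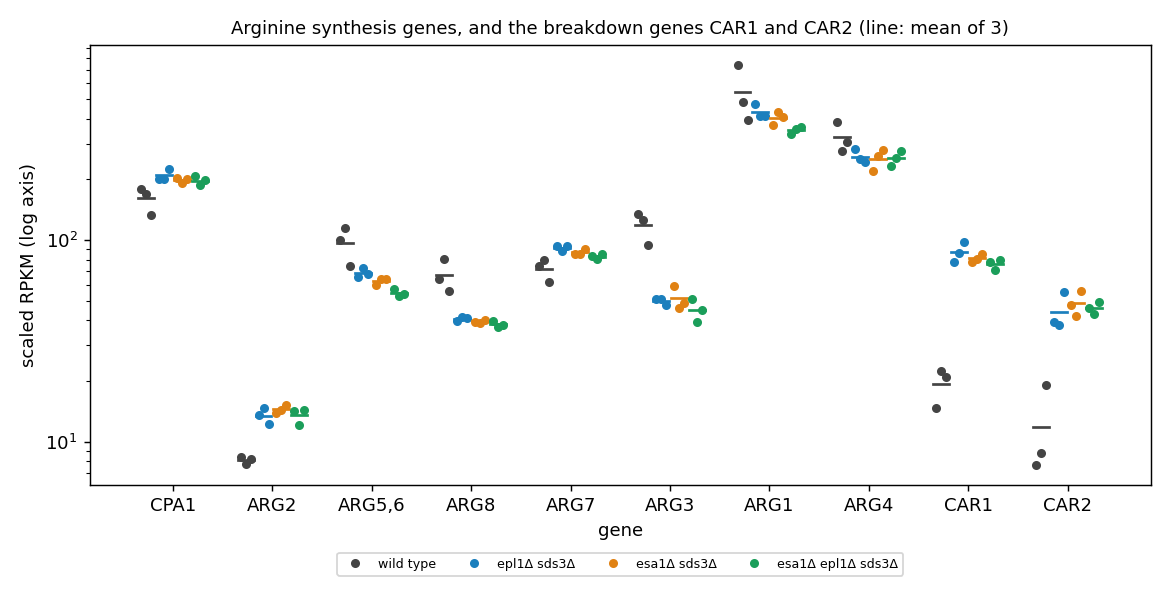
Scaled RPKM on a log axis in each library is shown for arginine synthesis genes in pathway order and for the breakdown genes CAR1 and CAR2, coloured by group, with a line at the mean of 3 libraries. Mutant points lie below wild type for ARG5,6, ARG8 and ARG3 and above it for CPA1, ARG2, ARG7, CAR1 and CAR2.

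Promoter stretches with the Gcn4 site in capitals are given for 2 arginine genes that fell, for CPA1, and for HOM3 of the threonine route, which rose under 2 labels. The CPA1 and HOM3 sites lie further than 250 bases before the start codon, at 484 and 283 bases. So does the site of ARG3, at 314 bases, and ARG3 fell. Of the 16 members with a site in the window from 250 bases before to 50 after the start codon 0 rose under any label. Of the 26 members without one, 5, 5 and 1 rose, and 0 of these calls held in all 16 alternatives. Among all 157 tested genes with a site in that window 35, 36 and 36 rose, and about 30% of all features rose. Whether the place of the site bears on the direction was not tested. The stretches shown are ARG3 at chrX:268459-268538, ARG5,6 at chrV:295160-295239 and CPA1 at chrXV:882404-882483, all on the plus strand. The HOM3 stretch is at chrV:258184-258263 on the minus strand. All are from the same genome and written 5′ to 3′.
ARG3: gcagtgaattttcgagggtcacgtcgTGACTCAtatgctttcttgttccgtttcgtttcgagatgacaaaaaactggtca
ARG5,6: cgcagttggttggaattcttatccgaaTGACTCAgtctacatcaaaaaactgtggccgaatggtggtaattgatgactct
CPA1: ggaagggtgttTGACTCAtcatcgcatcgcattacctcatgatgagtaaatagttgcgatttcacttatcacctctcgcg
HOM3: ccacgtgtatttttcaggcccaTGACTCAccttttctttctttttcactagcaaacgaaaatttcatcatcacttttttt

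Of the 5 histidine genes, HIS2 fell under every label and the others mostly did not pass the test. HIS2 (YFR025C, VI 203743 to 204750), histidinol phosphatase, measured 30.9, 31.6 and 29.5 RPKM in wild type. Under the mutant labels it had 13.6, 13.2 and 12.1, then 13.7, 13.1 and 12.3, then 13.04, 13.3 and 13.3. The wild-type libraries lay close together and well above all 9 mutant libraries, which were alike. HIS2 fell by 1.18, 1.17 and 1.16 (SE 0.08 each), with limma's adjusted p of 1.92e-07, 1.77e-07 and 1.98e-07, the smallest of the 42 genes under each label.

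HIS5, histidinol phosphate aminotransferase, measured 62.7, 54.3 and 48.1 RPKM in wild type and 54.8, 53.5 and 55.9 under epl1Δ sds3Δ. It had 36.7, 37.9 and 40.9 under esa1Δ sds3Δ and 43.7, 41.8 and 46.0 under the triple label. Every library that carries the esa1Δ::HIS3 label lay below every library that does not. HIS5 fell by 0.50 and 0.31 in those 2 comparisons (adjusted p 0.000892 and 0.0158), the second call was lost without wild-type replicate 1 or mutant replicate 2 and with quantile normalization (adjusted p 0.0529), and the fold change under epl1Δ sds3Δ was 0.00. HIS3 itself, the marker gene, measured 13.7 ± 4.38 RPKM in wild type, 11.3 ± 2.01 under epl1Δ sds3Δ, and 39.9 ± 1.39 and 40.9 ± 3.50 with the marker. The part of the marker in the HIS5 values was not tested. HIS1, HIS4 and HIS7 had fold changes between -0.29 and 0.19 and passed the test under no label.

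Among the genes of the route to chorismate, from which tryptophan, tyrosine and phenylalanine branch, ARO1 fell and ARO2 rose. ARO1 (YDR127W, IV 704484 to 709250), a single protein that carries several enzyme activities in a row, measured 121, 146 and 114 RPKM in wild type. It had 83.3, 76.6 and 83.0, then 70.3, 75.1 and 78.6, then 67.9, 68.5 and 72.4 under the mutant labels, none of which reached wild type. ARO1 fell by 0.63, 0.75 and 0.85 (SE 0.10 each), with limma's adjusted p of 0.000158, 4.19e-05 and 1.39e-05. ARO2, chorismate synthase and the next step, rose by 0.43 and 0.41 under the labels with a single NuA4 deletion and had 0.21 under the triple label (adjusted p 0.181). Its calls were lost without replicate 1 of epl1Δ sds3Δ in the first comparison, without wild-type replicate 3 or replicate 2 of esa1Δ sds3Δ in the second, with the protein-coding total in the second, and with RPKM as deposited in both.

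ARO3 and ARO4 are the paralogs for the first step, inhibited by phenylalanine and by tyrosine, and neither passed the test under any label. ARO3 (IV 521816 to 522928) measured 168, 146 and 140.4 RPKM in wild type, 158, 142 and 149 under epl1Δ sds3Δ, 133, 155 and 144 under esa1Δ sds3Δ, and 138, 135 and 144 under the triple label. ARO4 (II 716882 to 717994) measured 237, 298 and 222 in wild type, then 290.0, 279 and 305, then 264, 295 and 294, then 229, 248 and 253. Wild type overlapped the mutants in both genes, with fold changes from -0.12 to -0.01 for ARO3 and from -0.04 to 0.22 for ARO4. The pair is 63.7% identical in coding sequence, with no identical run above 17 bases.

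Tryptophan genes beyond chorismate fell in part. Of the 4, 1, 2 and 3 fell and 0 rose. That is 25%, 50% and 75% that fell, where 30%, 29.7% and 29.3% of all features fell and about 30% rose, so the first share is below that of all features. TRP3 (YKL211C, XI 36699 to 38153), which carries indole-3-glycerol phosphate synthase and part of anthranilate synthase, measured 70.1, 61.5 and 48.0 RPKM in wild type. It had 52.4, 45.1 and 45.7, then 39.1, 45.3 and 40.0, then 41.2, 41.6 and 39.7 under the mutant labels, of which the first overlapped wild type. TRP3 fell by 0.31, 0.50 and 0.53 (adjusted p 0.0482, 0.00378 and 0.00286), and the first call was lost without wild-type replicate 1 or 2 or mutant replicate 2 or 3, with quantile normalization and with no filter on low values. TRP2, the other part of anthranilate synthase, had 0.23, 0.23 and 0.20 and did not pass (adjusted p 0.0802 under esa1Δ sds3Δ, and 0.0383 there with the replicate number as a block). TRP4 fell by 0.33 and 0.39 under the labels with esa1Δ, and TRP5, tryptophan synthase, by 0.31 under the triple label. Under epl1Δ sds3Δ TRP4 had -0.20 (limma's adjusted p 0.109). TRP5 had -0.19 under each label with a single NuA4 deletion (adjusted p 0.164 and 0.161). The TRP4 call under esa1Δ sds3Δ was lost without wild-type replicate 1 or mutant replicate 1, and the TRP5 call without wild-type or mutant replicate 1 or 2. TRP1, whose trp1-1 allele is listed for wild type, measured 7.85 ± 1.29 RPKM there and 3.08 ± 0.285, 3.79 ± 1.10 and 3.65 ± 1.08 in the mutants, and fell by 1.11, 0.90 and 0.94.

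In the threonine route, HOM6 fell and HOM3 rose, although both serve the same chain from aspartate. HOM6 (YJR139C, X 689445 to 690524), homoserine dehydrogenase, measured 460.1, 507 and 384 RPKM in wild type. It had 285, 259.9 and 255, then 263, 278 and 267, then 242, 273 and 248, and all mutant libraries lay below wild type. HOM6 fell by 0.75, 0.73 and 0.81 (SE 0.11 each), with limma's adjusted p of 7.17e-05, 8.64e-05 and 3.36e-05. HOM3 (V 256375 to 257958), aspartate kinase at the head of the chain, measured 118, 101 and 78.2 in wild type, then 139, 121 and 124, then 125, 127 and 122, then 102, 112 and 106. It lay above wild type in all libraries of the labels epl1Δ sds3Δ and esa1Δ sds3Δ, where it rose by 0.38 and 0.35 (adjusted p 0.0197 and 0.0307), and within the wild-type range under the triple label (0.13). The HOM3 calls were lost without wild-type replicate 3, without replicate 1 of epl1Δ sds3Δ, without any 1 library of esa1Δ sds3Δ, with RPKM as deposited, and with scaling by the protein-coding total (0.26 and 0.20, adjusted p 0.1003 and 0.218). THR4, threonine synthase, fell by 0.33 and 0.39 under the labels with esa1Δ, the first call being lost without wild-type replicate 2 or mutant replicate 1 or 3. Under epl1Δ sds3Δ THR4 had -0.26, just short of the threshold (limma's adjusted p 0.0513), and was called lower in 8 of the 16 alternatives. THR1 and HOM2 did not pass the test.

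Among the 3 branched-chain genes, ILV1, threonine deaminase, which takes threonine into isoleucine, rose under 2 labels. It measured 103, 118 and 69.2 RPKM in wild type, 151, 122 and 133 under epl1Δ sds3Δ, 117, 139.9 and 131 under esa1Δ sds3Δ, and 105, 114 and 115 under the triple label. Wild-type replicate 3 was the lowest of all 12 libraries, and without it neither rise was called. ILV1 rose by 0.51 and 0.44 (SE 0.16 each, adjusted p 0.0162 and 0.031) and had 0.24 under the triple label. Its calls were also lost without replicate 1 of epl1Δ sds3Δ, without replicate 2 or 3 of esa1Δ sds3Δ, with RPKM as deposited and, for the second, with the protein-coding total.

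BAT2 (YJR148W, X 705744 to 706874), the cytosolic branched-chain aminotransferase, differed most among the mutant labels. It measured 36.8, 36.1 and 33.7 RPKM in wild type, 22.6, 27.6 and 30.4 under epl1Δ sds3Δ, 30.2, 34.5 and 37.0 under esa1Δ sds3Δ, and 23.4, 17.0 and 21.1 under the triple label. The libraries labelled esa1Δ sds3Δ overlapped wild type and the others did not. BAT2 fell by 0.40 (SE 0.13) and 0.78 (SE 0.13) under the labels with epl1Δ, with limma's adjusted p of 0.0186 and 0.000252, and had -0.07 under esa1Δ sds3Δ (adjusted p 0.667). The first of these calls was lost without replicate 1 of epl1Δ sds3Δ. ILV6, the regulatory subunit of acetolactate synthase, had 0.28, 0.23 and 0.10 and did not pass.

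Serine is made from 3-phosphoglycerate, and its first enzyme has the paralogs SER3 and SER33. SER33 (YIL074C, IX 221081 to 222490) measured 56.8, 48.4 and 45.5 RPKM in wild type, then 30.3, 28.6 and 27.7, then 29.1, 30.03 and 27.9, then 23.5, 28.2 and 23.7. No mutant library overlapped wild type, and SER33 fell by 0.77, 0.77 and 0.97 (SE 0.10 each; adjusted p 3.61e-05, 3.89e-05 and 5.3e-06). SER3 (V 322686 to 324095), which is known to be repressed by transcription through its promoter when serine is present, measured 134, 79.32 and 73.1 in wild type, then 75.7, 74.8 and 79.98, then 64.4, 77.8 and 81.9, then 57.3, 59.5 and 65.8. Wild-type replicate 1 stood above all other libraries, and SER3 fell under the triple label alone, by 0.59 (adjusted p 0.0131), with -0.26 and -0.30 under the others. The paralogs are 82.6% identical with an identical run of 56 bases, so the split of reads between them is uncertain. SER33 lies 17822 bases from SDS3, and whether that bears on its level was not tested. SER1, the aminotransferase of the next step, fell by 0.43 and 0.53 under the labels with esa1Δ, the first of these calls being lost without wild-type replicate 1 or without any 1 library of esa1Δ sds3Δ and with quantile normalization. Under epl1Δ sds3Δ SER1 had a similar -0.37 without passing the test (limma's adjusted p 0.0597). SER2, the phosphatase, had 0.01, -0.20 and -0.10.

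Asparagine synthetase is encoded by the paralogs ASN1 and ASN2. ASN1 (XVI 822620 to 824338) measured 180.4, 205 and 131 RPKM in wild type, then 162, 135 and 141, then 126, 129.7 and 132, then 118, 105 and 117. Only the triple label lay wholly below wild type. ASN1 fell by 0.39 and 0.57 under the labels with esa1Δ (adjusted p 0.0304 and 0.00357) and had -0.21 under epl1Δ sds3Δ. The call under esa1Δ sds3Δ was lost without wild-type replicate 1 or 2 or without any 1 of its own libraries. ASN2 (VII 739944 to 741662) measured 227, 302 and 220.5 in wild type, then 276, 253 and 262, then 249.98, 282 and 264, then 229.6, 239 and 246, all within the wild-type range, with fold changes of 0.09, 0.10 and -0.06. The paralogs are 81.0% identical with an identical run of 83 bases.

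Between the mutant labels, 0 of the 42 genes passed limma's test in any of the 3 comparisons, where 0.185%, 0.134% and 0.0504% of all features did. At an unadjusted p under 0.05 there were 4 members for esa1Δ sds3Δ against epl1Δ sds3Δ, 11 for the triple label against epl1Δ sds3Δ and 3 for the triple label against esa1Δ sds3Δ. Over all 5956 features the counts at that limit were 282, 388 and 377. With voom weights on the recovered reads, HIS5 was called lower in the first comparison and BAT2 in the third, and each had the smallest adjusted p of the 42 in that comparison without the weights. HIS5 was lower by 0.50 (SE 0.10, adjusted p 0.124) where ESA1 rather than EPL1 was labelled deleted. BAT2 was lower by 0.71 (SE 0.13, adjusted p 0.163) in the triple label than in esa1Δ sds3Δ. The median difference over the 42 genes was -0.06, -0.21 and -0.14 in the 3 comparisons.

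The triple label tended to the lower end without passing the test gene by gene. All 3 libraries of the triple label lay below all 3 of epl1Δ sds3Δ for 24 of the 42 genes, where 10% of all features did, and above them for 0, where 6.53% did. Against esa1Δ sds3Δ the groups did not overlap, with the triple label lower, for 15 members beside 11.4% of all features, and with it higher for 1 member beside 8.88%. The median difference in that comparison was -0.14 in the main scaling and -0.030 with scaling by the protein-coding total. The libraries labelled esa1Δ sds3Δ lay wholly below those labelled epl1Δ sds3Δ for 5 members, beside 5.36% of all features, and wholly above them for 0, beside 5.04%. LYS1 was lower in the triple label by 0.39 and 0.41 (SE 0.16, adjusted p 0.758 in both) and LYS9 by 0.42 and 0.34 (SE 0.15, adjusted p 0.719 and 0.758). The summed level of the 42 genes was 8757 ± 1214 RPKM in wild type and 7125 ± 367, 6852 ± 153 and 6071 ± 90.6 under the mutant labels.

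The Gcn4 site TGACTCA, on either strand, stood in the window from 250 bases before to 50 after the start codon in 16 of the 42 genes, or 38.1%, and in 2.73% of 6000 promoters. In the 500 bases before the start codon it stood in 23 members, or 54.8%, and in 4% of all. In the first window, members with the site had median fold changes of -0.11, -0.37 and -0.32, and the 26 without it -0.26, -0.31 and -0.40. Of the 16 with the site, 6, 9 and 9 fell and 0 rose, and of the 26 without it 10, 12 and 16 fell and 5, 5 and 1 rose. All 157 tested genes with the site in this window, members included, had 61, 70 and 69 that fell and 35, 36 and 36 that rose. About 30% of all features went each way under each label. In the longer window, which was chosen after seeing the data, the medians were 0.00, -0.33 and -0.31 with the site and -0.33, -0.33 and -0.53 without. There 7, 11 and 12 of the 23 with the site fell and 2, 2 and 1 rose, and 9, 10 and 13 of the 19 without it fell and 3, 3 and 0 rose. HIS2, HOM6 and SER33 fell and held no such site in the longer window, while ARG3, ARO1 and LYS2 fell and held one. All 233 tested genes with the site in the longer window, members included, had medians of -0.12, -0.17 and -0.21. Of these genes, 84, 95 and 100 fell and 66, 64 and 60 rose.

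**Figure D5:**
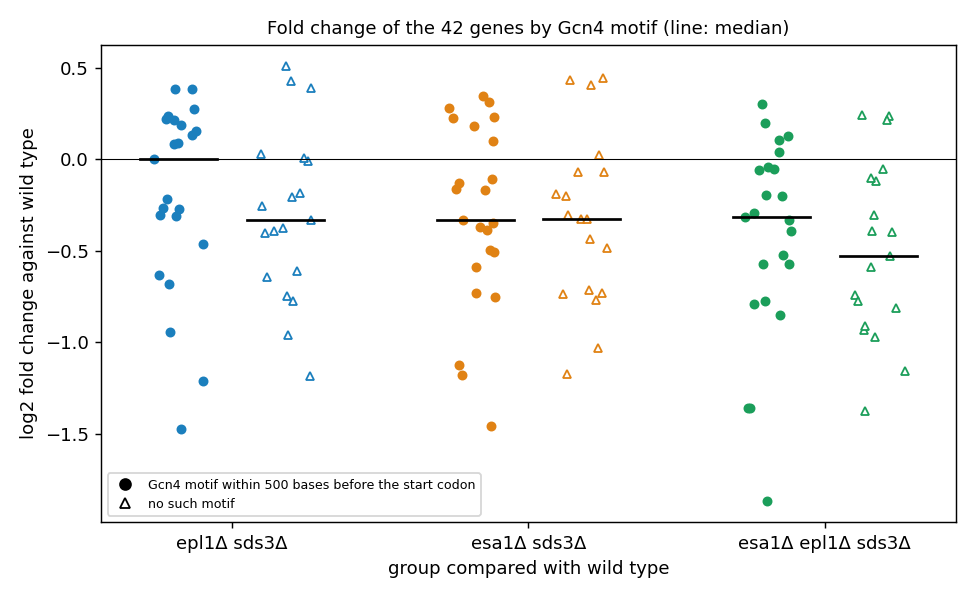
The log2 fold change against wild type of each of the 42 genes is shown for the 3 mutant labels, with filled circles for genes that have the Gcn4 site in the 500 bases before the start codon, open triangles for genes without it, and a line at each median. The spreads of both kinds overlap under every label, and the lowest circles are LYS1, ARG3 and LYS2.

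Other genes of amino acid metabolism are given for context, with no test against the 42, and about 30% of all features rose and about 30% fell under each label. Of 16 further enzymes of the same pathways, 6, 7 and 6 rose and 4, 2 and 6 fell, or 37.5%, 43.8% and 37.5% beside 25%, 12.5% and 37.5%. HIS3, the marker gene that came with every esa1Δ label, is among these 16 and was higher with the marker, as given above. ARO9, an aromatic aminotransferase induced for amino acid breakdown, rose by 1.70, 1.72 and 1.41. Of 12 pathway regulators, 6, 5 and 7 rose and 2 fell under each label. LEU3, the factor for leucine genes, rose from 5.27 ± 0.558 RPKM to 8.499 ± 0.583, 8.25 ± 0.587 and 9.63 ± 0.636.

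Of 10 genes for amino acid breakdown, 6, 7 and 5 rose and 2, 1 and 3 fell. ARO10, the decarboxylase of the route to fusel alcohols, measured 26.7, 41.8 and 33.3 RPKM in wild type and between 106 and 134 in the mutants, and rose by 1.89, 1.89 and 1.66. SRY1, hydroxyaspartate dehydratase, went the other way, from 36.5 ± 5.78 RPKM to 8.30 ± 1.88, 4.76 ± 0.844 and 5.02 ± 0.885. It fell, with fold changes of -2.02, -2.70 and -2.64.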

How the data were processed

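RNA-seq values of 12 libraries in 4 genotype groups were used. The authors deposited RPKM per feature, 1 value per feature and library. Named without roles, per the submitters' processing notes, are Bowtie 0.12.2, STAR, cutadapt, and the builds sacCer3 and mm8. How reads were counted, on which strand, and where multiple matches went is not given in the sources used here. Values times gene length came out as whole reads, within 0.01 read, for at least 99.7% of the values under 5000 reads in a library, which gave the reads per library.

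Median-of-ratios factors scaled the RPKM values. The 5956 features averaging 1 RPKM or more across 12 libraries entered a test with limma 3.58.1 in R 4.3.3 on log2(scaled RPKM + 1). All libraries entered 1 fit with a mean per group and a mean-variance trend; tests were two-sided and the Benjamini-Hochberg adjustment ran over all features in each of 6 comparisons. The log2(value + 1) scale understates changes of low genes. The step was tested on simulated data. Genes given in every library are GCN4 and, per pathway, the members with the smallest adjusted p and the largest mean fold change against wild type, both members of 4 paralog pairs, and any member called between mutants, of which there was none; ARG1, ILV1, HOM3, HIS5 and other members were added after their values were seen. Up to 3 genes of each other list were named by smallest adjusted p, and further ones after their values were seen.

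The members, the other gene lists and the tests were chosen with earlier results of these data known. Deviations from the group means of same-numbered libraries correlated at 0.124, 0.125 and 0.182 for esa1Δ sds3Δ with wild type, each over 0.1, whereas every other comparison had a lower pair. The labels name no shared day, so this pairing is read from the values. The blocked value is given where it changes a call of esa1Δ sds3Δ against wild type. Blocking also called ILV6 and TRP2 higher and THR4 and SER1 lower under epl1Δ sds3Δ. Under the triple label it called GCN4 higher and ended the ARG4 call. Names, positions and promoters came from RefSeq R64, the assembly that sacCer3 also holds, and 6048 features matched a locus tag. Strains are not stated to be more than 1 clone each. Alternatives were other scalings, pseudocounts and filters, a fit of only the 6 libraries compared, voom weights on the recovered reads, the replicate block, leaving out each library in turn, and the 500-base promoter window, which was chosen after seeing the data. Values of 1 of the 42 genes are not reported here by name; it is part of the counts and medians.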

Additional observations from a re-analysis of the deposited data

How the results depend on the processing

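Of the members that fell, 12 of 16, 14 of 21 and 22 of 25 did so in all 16 alternatives of their comparison with wild type, and of the 5, 5 and 1 that rose, 0 did; no member that passed the test changed sign. For epl1Δ sds3Δ, RPKM as deposited gave 0 that rose, 25 that fell and a median of -0.49, the fit of only 6 libraries gave 1 that rose, and leaving out 1 library gave 2 to 7. For esa1Δ sds3Δ the number that rose was 0 with RPKM as deposited (median -0.58), 3 with quantile normalization, 1 with scaling by the protein-coding total, 1 with only 6 libraries and 1 to 7 without 1 library. Under the triple label it was 0 as deposited, 2 with quantile normalization, 0 with only 6 libraries and 0 to 3 without 1 library. The replicate block gave 2 there, and the numbers that rose and fell were 7 and 18 for epl1Δ sds3Δ and 6 and 21 for esa1Δ sds3Δ; beside TRP2 it changed no call in the latter. Between mutant labels, voom called 1 member lower for esa1Δ sds3Δ against epl1Δ sds3Δ and 1 for the triple label against esa1Δ sds3Δ, where the median was -0.036 with quantile normalization and -0.030 with the protein-coding total. The causes of these differences were not tested.

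Among members named in full, changes of sign occurred where the test was not passed. Without 1 library, BAT2 under esa1Δ sds3Δ had -0.13 to 0.011, ARO3 under epl1Δ sds3Δ -0.064 to 0.060, ARO3 under esa1Δ sds3Δ -0.12 to 0.0040, ARO4 under the triple label -0.12 to 0.078, SER3 under epl1Δ sds3Δ -0.42 to 0.0069 and ASN2 under the triple label -0.14 to 0.084. With RPKM as deposited, ARO4 had -0.041 and -0.073 under the labels with a single NuA4 deletion and ASN2 -0.17 and -0.16. With the protein-coding total ASN2 had -0.028 and -0.055 there, and with quantile normalization -0.039 under esa1Δ sds3Δ.

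At 3 libraries per group, a member outside the test is not shown to be unchanged. The lowest member, with 84 to 275 reads per library, is the least precise.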

Other observations

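Amino acid permeases and tRNA synthetases, which belong to neither the synthesis list nor its regulators, are given here as values. Of 14 permeases, 8, 7 and 4 rose and 3, 4 and 5 fell under the 3 mutant labels, in the order used above. These are 57.1%, 50% and 28.6% that rose and 21.4%, 28.6% and 35.7% that fell, beside about 30% each way over all features. DIP5, the permease for glutamate and aspartate, measured 254, 162 and 158 RPKM in wild type and between 40.1 and 65.9 in the 9 mutant libraries, and it fell in limma's test, with log2 fold changes of -1.80, -1.57 and -2.07. PUT4, the proline permease, fell from 80.6 ± 20.5 RPKM to 27.3 ± 3.84, 26.4 ± 2.74 and 24.0 ± 3.60 (SD, n = 3). TAT2, which imports tryptophan and tyrosine, rose from 50.3 ± 4.58 RPKM to 81.7 ± 4.62, 78.6 ± 5.37 and 70.2 ± 2.69. GAP1, the general permease, had fold changes of -0.02, -0.09 and -0.21, none past the test.

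Of 18 genes for cytosolic aminoacyl-tRNA synthetases, which load tRNA with amino acids, 9, 9 and 11 fell (50%, 50% and 61.1%) and 1 rose under each label (5.56%). Over all features 30%, 29.7% and 29.3% fell and 30.1%, 30% and 30.1% rose. WRS1, for tryptophan, fell by 0.83, 0.75 and 0.80, DPS1, for aspartate, by 0.53, 0.57 and 0.56, and GRS1, for glycine, by 0.53, 0.53 and 0.64. HTS1, for histidine, was the gene that rose, by 0.51, 0.50 and 0.45, and KRS1, for lysine, had 0.22, 0.12 and 0.10 without passing the test.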
